A study of Mus musculus with 2 samples.

Results

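The genes described here encode the nuclear part of oxidative phosphorylation: the subunits of the 4 respiratory complexes and of ATP synthase (complex V), together with the assembly factors that share their symbols, among them the copper chaperone Cox17. They were selected by symbol: every listed gene whose symbol starts with Nduf, Uqc, Atp5 or Cox followed by a digit, plus Sdha, Sdhb, Sdhc and Sdhd, with pseudogene symbols containing -ps left out. This gave 105 of 31055 listed genes, under 104 different symbols, because Atp5o is listed at 2 gene models and the second one had 0 UMIs. By role, 104 of them were placed in a complex or an assembly group, and Atp5s, which was left unplaced, had 211 UMIs in the standard tumour-lineage cells. The name of the set is loose in places: Cox17 and the other numbered Cox assembly factors are not part of the finished enzyme, and ATP synthase subunits listed under other symbols, such as Usmg5, are not caught by the rule.

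The data are single-cell RNA sequencing of medulloblastoma that arose in Math1-Cre;SmoM2fl/fl mice, with 1 library after standard proton irradiation and 1 library after FLASH proton irradiation, a mode in which the dose arrives within a very short time. Both libraries carry the same genotype, and both are irradiated; no unirradiated library was analysed here. The sample labels give 5 Gy while the design text of the series gives 10 Gy, and the files do not settle which applies. The sources used here do not state how long after irradiation tumours were taken, or how many mice were pooled. Math1 drives Cre in cerebellar granule neuron precursors, so SmoM2, an activated form of Smoothened, is switched on there, and blood, vascular and glial cells of the tumour serve as cells outside that lineage.

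As background, electrons from NADH enter the chain at complex I and those from succinate at complex II, pass through ubiquinone to complex III, and move by cytochrome c to complex IV, which reduces oxygen. Complexes I, III and IV pump protons, and ATP synthase uses the proton gradient to make ATP. Most subunits are encoded in the nucleus, a small core is encoded in mitochondrial DNA, and dedicated assembly factors build the enzymes and insert their metal centres. Cox17 is the small intermembrane-space protein that hands copper to the factors that load the copper sites of complex IV. SHH-driven granule neuron progenitors are known for strong aerobic glycolysis, and granule neurons rely more on oxidative metabolism as they mature.

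The deposited matrices listed 12867 barcodes (55532202 UMIs) for the standard and 14269 barcodes (63178900 UMIs) for the FLASH library. Barcodes with at least 500 genes and at most 10% mitochondrial UMIs numbered 8461 and 10366, of which 7888 and 9506 remained after doublet removal. The libraries shared 46 barcodes as deposited and 22 among those that passed. Cells were clustered without the genes described here, and clusters were named from marker lists, with the suffix -like because no label gives a cell type. Tumour-lineage cells numbered 5509 in the standard and 7046 in the FLASH library, with median depths of 6547 and 5860 UMIs and median mitochondrial shares of 3.43% and 3.54%. They comprised non-cycling progenitor-like (1746 and 2203), S phase-like (1020 and 1441), G2/M-like (544 and 667) and differentiating neuron-like cells (1273 and 1500), and granule lineage clusters without a state name (926 and 1235). The clusters without a state name passed no marker cutoff and were counted in the lineage by exclusion. Among them, cluster 11 was led by Ccnb2 and Cenpa and cluster 16 by Ren1 and Meis2. Outside the lineage there were 163 and 203 macrophage-like, 156 and 129 microglia-like, 121 and 175 oligodendrocyte-like, 33 and 50 endothelial-like, and 30 and 37 erythroid-like cells. Low-depth clusters (1362 and 1505 cells) and a cluster rich in nuclear RNA (466 and 284 cells) stayed unnamed and outside these classes.

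Values are UMIs summed over the cells of a class and scaled to counts per 1000000 UMIs (CPM) of that class and library. With 1 library per group there is no replicate and no test; every 95% interval covers counting error only, and every difference between standard and FLASH describes these 2 libraries. A gene was compared where it had at least 50 CPM and 100 UMIs in the classes compared. It was counted as past the fold at 1.2-fold between libraries, or at 1.5-fold in the same direction in both libraries between cell classes. UMIs were counted near the 3′ end, so levels are compared between cells for the same gene and not between genes.

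In tumour-lineage cells the oxidative phosphorylation genes together took 27925 CPM in the standard library (2.79% of all UMIs) and 26993 CPM in the FLASH library (2.70%). Between the libraries most of these genes lay close to equality, slightly on the lower side in FLASH, and Cox17 stood at the low end. Of the 105 genes, 83 passed the level filter; 59 were below 0 and 24 above 0 on the log2 scale of FLASH over standard. The 22 under the filter were 8 tissue isoforms of complex IV, the assembly factors Cox10, Cox11, Cox15, Cox16, Cox18, Ndufaf1, Ndufaf3, Ndufaf5, Ndufaf6, Ndufaf7 and Uqcc1, the complex I subunit Ndufs1 (47.15 and 48.32 CPM), Atp5s and the second Atp5o model. The median log2 ratio of the 83 was -0.038, against 0.013 for all 3334 genes compared. None was at least 1.2-fold higher, where 0.36% of all genes were, and 2 were at least 1.2-fold lower, where 0.78% of all genes were: Cox17 and Ndufa1.

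**Figure D1:**
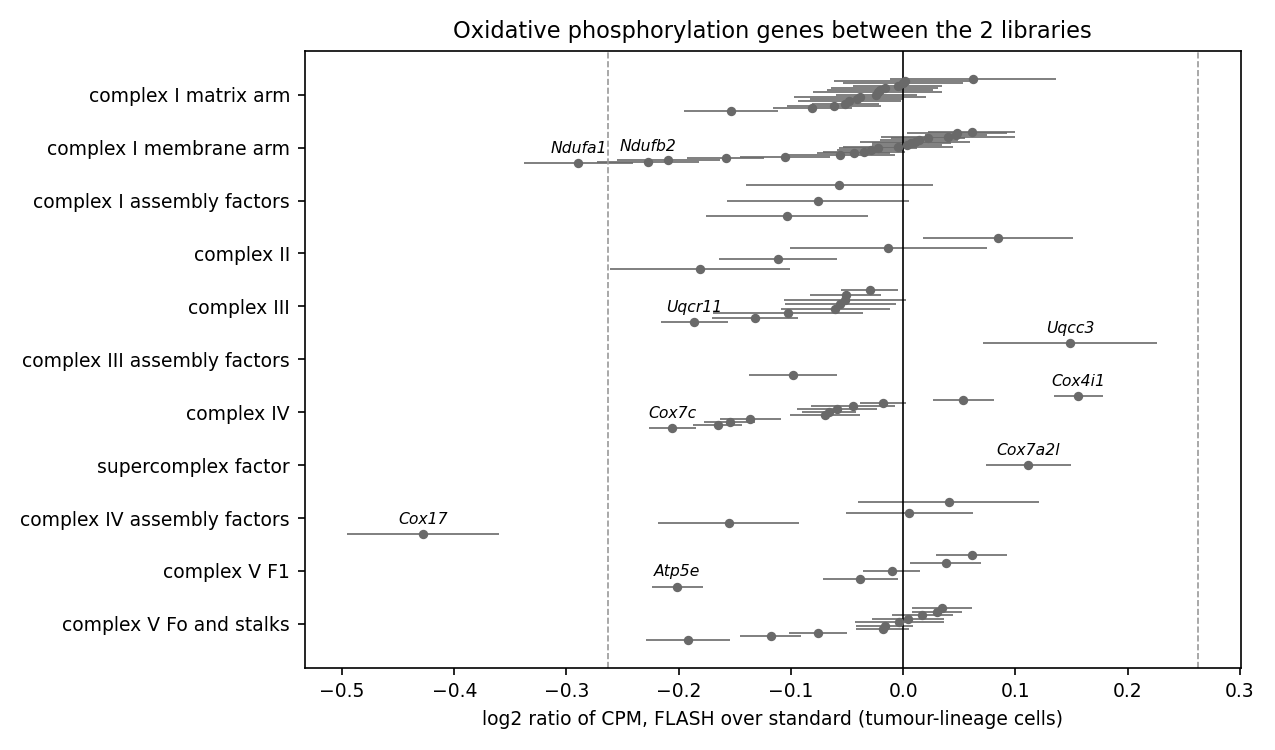
Log2 ratio of CPM, FLASH over standard, in tumour-lineage cells for each compared gene (points), in rows by complex or assembly group; horizontal lines are 95% counting intervals and dashed lines mark 1.2-fold. Cox17 lies at -0.43 and Ndufa1 at -0.29, while Cox4i1 and Uqcc3 lie at 0.16 and 0.15.

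Cox17 lies on chromosome 16 at 38346991 to 38352763, plus strand, in GRCm38 (gene ENSMUSG00000046516). It had 100.55 CPM (3822 UMIs) in the standard and 74.75 CPM (3286 UMIs) in the FLASH tumour-lineage cells. The FLASH level was the lower one, with a log2 ratio of -0.43 (95% interval -0.50 to -0.36). That ratio ranked 7 from the lowest among the 3334 genes compared. The 5 cells with the most Cox17 UMIs held 0.785% and 0.791% of its UMIs. Cox17 is named here because an earlier look at these same files showed its low FLASH level, and the value is given as a description.

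The lower Cox17 level in FLASH appeared in each tumour state. Non-cycling progenitor-like cells had 102.91 CPM in the standard and 79.78 CPM in the FLASH library, a log2 ratio of -0.37 (-0.49 to -0.24). S phase-like cells had 97.35 and 71.98 CPM, and G2/M-like cells had 111.25 and 79.24 CPM with a log2 ratio of -0.49 (-0.66 to -0.32). Differentiating neuron-like cells had the lowest levels of the 4 states, 76.85 and 60.00 CPM, and a log2 ratio of -0.36 (-0.55 to -0.16). Within them, Cox17 had 88.7 and 65.5 CPM in cluster 3 and 55.7 and 49.1 CPM in cluster 6. In each of these 4 states Cox17 was the lowest of the oxidative phosphorylation genes compared. Split further, 11 of the 12 tumour-lineage clusters had enough cells to compare, and the other, a differentiating cluster of 3 and 7 cells, had 0 and 3 Cox17 UMIs. All 11 had a lower CPM in FLASH, with log2 ratios from -0.74 to -0.17. The value nearest 0 came from a cluster led by Ren1 and Meis2 with 48 and 190 cells and only 22 standard UMIs of Cox17. These clusters are parts of the same 2 libraries and are not replicates. Being lower in all 11 was not particular to Cox17. Among the compared genes it also held for Atp5e, Atp5j2, Cox6b1, Cox6c, Cox7c, Cox8a, Ndufa1, Ndufa3, Ndufa5, Ndufb2, Uqcr10 and Uqcr11. The share of all genes that were lower in all 11 was not computed.

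**Figure D2:**
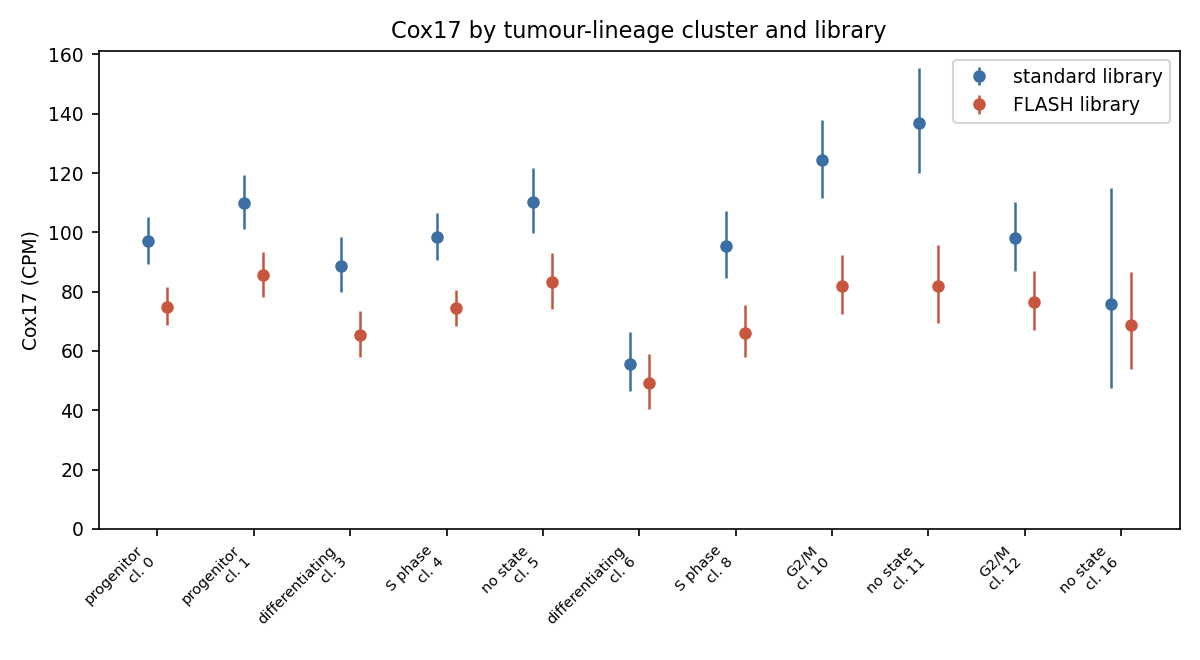
Cox17 level (CPM, axis from 0) in each of the 11 compared tumour-lineage clusters (1 cluster of 3 and 7 cells is not drawn), standard library in blue and FLASH library in red; vertical lines are 95% Poisson intervals, and each cluster is labelled by its state and number. The FLASH point is below the standard point in all 11, with overlapping intervals in clusters 6 and 16.

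A UMI of Cox17 was seen in 46.0% of the standard tumour-lineage cells (2535 of 5509) and in 34.9% of the FLASH cells (2461 of 7046). Since depth differed, cells were also thinned to 2000 UMIs each, leaving out 179 and 285 shallower cells. The thinned shares were 17.8% (95% interval 16.8 to 18.9) and 13.6% (12.8 to 14.4). No class of these tumours should lack Cox17, a gene of all respiring cells, so there is no share of free RNA to set beside these; the lowest shares were in the unnamed cluster rich in nuclear RNA, 8.15% and 6.69% before thinning, at median depths of 2092 and 2004 UMIs.

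Outside the lineage the Cox17 counts of the named classes were small. Myeloid cells (macrophage- and microglia-like together) had 96.2 and 84.3 CPM, a log2 ratio of -0.19 whose interval, -0.48 to 0.10, includes 0. Within them, macrophage-like cells had 112.0 and 91.0 CPM (148 and 146 UMIs) and microglia-like cells 71.1 and 69.9 CPM (59 and 52 UMIs). A UMI of Cox17 was seen in 24.4% and 27.9% of microglia-like cells, and after thinning in 14.1% (95% interval 7.95 to 22.6) and 20.9% (12.9 to 31.0), with overlapping intervals. Oligodendrocyte-like cells had 123.9 CPM (105 UMIs) and 73.8 CPM (78 UMIs), a log2 ratio of -0.75 (-1.19 to -0.31). Endothelial-like cells had 19 and 11 Cox17 UMIs in all, and erythroid-like cells 10 and 7. The unnamed low-depth clusters, with median depths of 1472.5 and 1455 UMIs, had 148.2 and 94.7 CPM (368 and 255 UMIs). Among them, cluster 7 (499 and 558 cells) was led by Hist1h4d and Ube2c. The leading genes of cluster 2 (851 and 905 cells) included Pcp4, Tubb3, Mbp and Stmn2. These clusters are therefore not shown to lie outside the lineage. The difference between classes in this ratio was not tested.

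Among the other complex IV assembly factors no gene came near the Cox17 ratio. Cox20, which handles newly made subunit 2 before it receives copper, had 105.03 CPM in the standard and 94.30 CPM in the FLASH tumour-lineage cells, a log2 ratio of -0.15 (-0.22 to -0.09). Cox19, a further small intermembrane-space protein of copper handling, had 60.69 and 62.42 CPM (log2 ratio 0.041). Cox14 had 122.81 and 123.28 CPM. These 3 lay within 1.2-fold. Cox10 and Cox15 (heme A synthesis), Cox11 (copper insertion), Cox16 and Cox18 were below 50 CPM in both libraries and were not compared.

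Complex I holds the second gene past 1.2-fold. Ndufa1, a small membrane-arm subunit, had 182.74 CPM in the standard and 149.53 CPM in the FLASH library, a log2 ratio of -0.29 (-0.34 to -0.24). It was lower in FLASH in all 11 compared clusters, from -0.40 to -0.21. The membrane-arm subunits Ndufb2 (207.84 and 177.51 CPM) and Ndufa3 (202.05 and 174.76 CPM) were next, with log2 ratios of -0.23 and -0.21. The rest of complex I lay nearer to 0. In the membrane arm 11 of 20 compared genes were below 0, with a median of -0.013, and in the matrix arm, which holds the NADH and iron-sulfur sites, 13 of 15 were below 0 with a median of -0.024. On the higher side were Ndufa9 of the matrix arm (71.77 and 74.94 CPM, log2 ratio 0.062) and Ndufb10 of the membrane arm (254.04 and 265.01 CPM, 0.061). All 3 compared complex I assembly factors, Ndufaf2, Ndufaf4 and Ndufaf8, were below 0, with log2 ratios from -0.10 to -0.057, and the interval reached past 0 for Ndufaf4 and Ndufaf8.

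Complex II, which also serves the TCA cycle, split by subunit. Sdha, the flavoprotein, had 86.58 CPM in the standard and 91.82 CPM in the FLASH library (log2 ratio 0.085, 0.018 to 0.15). The membrane anchor Sdhd had 66.03 and 58.24 CPM (-0.18, -0.26 to -0.10), and the iron-sulfur subunit Sdhb had 149.80 and 138.66 CPM (-0.11). In complex III all 8 subunits were below 0, with a median of -0.058, and the lowest was the small subunit Uqcr11 at 474.93 and 417.41 CPM (-0.19). Its assembly factors diverged: Uqcc3 had 63.83 and 70.75 CPM (0.15, 0.071 to 0.23) and Uqcc2 had 262.98 and 245.69 CPM (-0.098).

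The widest range of ratios within 1 complex was that of the complex IV subunits. Cox7c, a small structural subunit, had 969.24 CPM in the standard and 840.39 CPM in the FLASH library (log2 ratio -0.21). Cox4i1, the ubiquitous isoform of the subunit through which ATP regulates the enzyme, had 804.63 and 896.60 CPM and the highest ratio of all these genes, 0.16 (0.13 to 0.18). It was above 0 in all 11 compared clusters, from 0.13 to 0.23, so 2 subunits of one enzyme lay on opposite sides of equality. The complex IV median was -0.066 over 11 compared genes, with 9 below 0. Cox7a2l, a factor that helps hold complexes III and IV together in supercomplexes, had 265.19 and 286.49 CPM (0.11) and was above 0 in 10 of the 11 compared clusters.

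Complex V was nearest to equality, with a median of -0.010 over 15 compared genes. Atp5e, the small epsilon subunit of the F1 head, had 826.38 CPM in the standard and 718.75 CPM in the FLASH library (log2 ratio -0.20), and Atp5k of the membrane part had 304.42 and 266.56 CPM (-0.19). The catalytic beta subunit Atp5b had 617.20 and 612.87 CPM, and the alpha subunit Atp5a1 had 384.16 and 400.73 CPM (0.061). The catalytic head and its small subunit were thus not equally placed.

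By state, the genes past 1.2-fold lower in FLASH were Ndufa1 and Cox17 in progenitor-like cells (background 0.892%), Atp5k and Cox17 in S phase-like cells (1.26%), Ndufa1, Sdhd, Ndufaf8 and Cox17 in G2/M-like cells (1.54%), and Cox17 in differentiating neuron-like cells (1.11%). None was 1.2-fold higher in any of these 4 states, where 0.478%, 0.992%, 1.94% and 0.902% of all genes were. Myeloid cells had 4 higher (Ndufb6, Cox5a, Ndufaf8 and Ndufv1; background 8.87%) and 2 lower (Sdhc and Ndufa3; background 8.01%) of 80 compared. Oligodendrocyte-like cells had 7 higher (background 18.8%) and 4 lower (Ndufa3, Sdhd, Ndufaf2 and Cox17; background 15.3%) of 85. This class held 847314 UMIs in the standard and 1057267 in the FLASH library. The part of low counts in these shares was not tested.

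Short transcripts were frequent at the low end. Taking for each gene the shortest principal protein-coding transcript of GENCODE M21, the 14 compared oxidative phosphorylation genes of at most 500 bases had a median log2 ratio of -0.16, with 13 below 0. Cox17 has 444 bases (189 coding) and Ndufa1 has 419 (210 coding). The exception was Atp5g2 at 0.030, whose annotated 441 bases are almost all coding (438). The 15 genes of 500 to 600 bases had a median of -0.051, the 18 of 600 to 800 bases -0.011, the 9 of 800 to 1000 bases -0.0047, the 21 of 1000 to 2000 bases -0.029, with 15 below 0, and the 6 above 2000 bases 0.025, so the medians did not rise at every step. Other nuclear genes were ordered alike at the short end: the 51 of at most 500 bases had a median of -0.13, with 38 below 0, and the 42 of 500 to 600 bases -0.012. The 158 of 600 to 800 bases had 0.017, the 161 of 800 to 1000 bases 0.023, the 835 of 1000 to 2000 bases 0.0035, and the 1961 above 2000 bases 0.020. Here too the medians did not rise at every step.

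**Figure D3:**
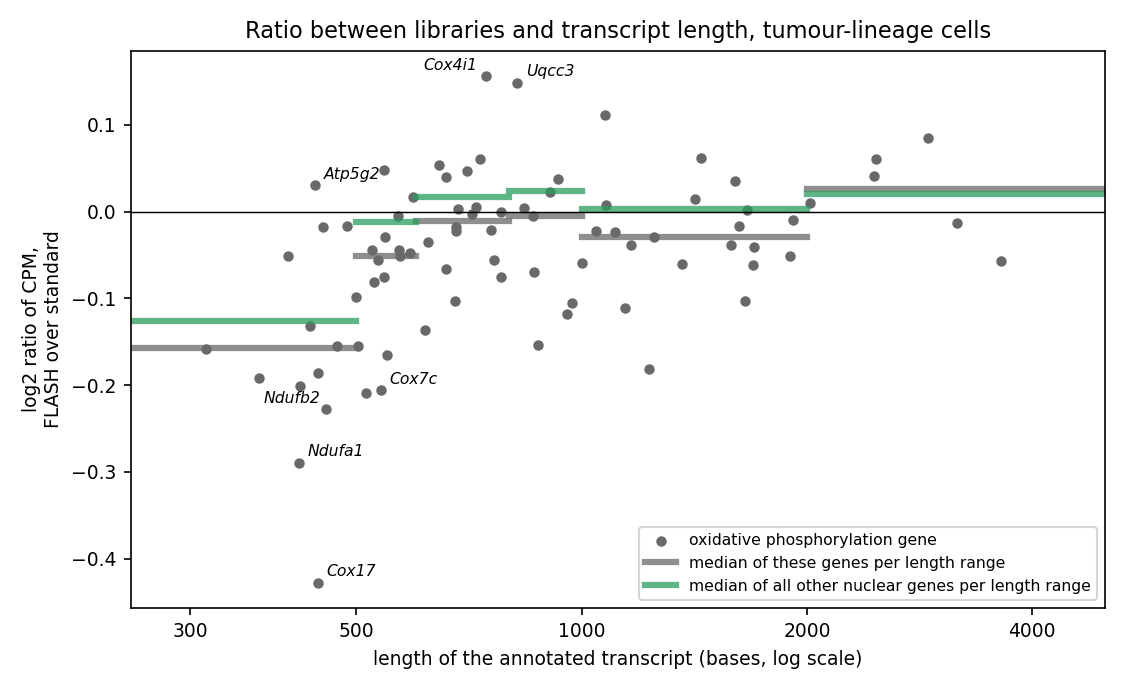
Log2 ratio of CPM, FLASH over standard, in tumour-lineage cells against the length of the annotated transcript (bases, log scale); points are oxidative phosphorylation genes, and bars are medians per length range for these genes (grey) and for all other nuclear genes (green). Up to 500 bases both medians are low, -0.16 and -0.13, and Cox17 lies under its range at -0.43.

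Across the 83 genes Spearman's rho between ratio and transcript length was 0.42, and 0.40 without Cox17; it was 0.11 across 3208 other nuclear genes and 0.38 across 79 cytosolic ribosomal protein genes. These are descriptions over genes that share the same 2 libraries. In myeloid cells the rho was 0.18 for the oxidative phosphorylation genes and -0.23 for other genes. Among all 68 compared genes of at most 500 bases Cox17 was the lowest. The next were Usmg5 (352 bases, 341.67 and 269.35 CPM, log2 ratio -0.34), which encodes an ATP synthase subunit not caught by the symbol rule, and the mitochondrially encoded mt-Atp8 (-0.31). Transcript length moved with the ratio among the oxidative phosphorylation genes of tumour-lineage cells, and its part in the Cox17 result was not tested.

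Most partner genes outside the symbol rule lay within 1.2-fold in tumour-lineage cells, and mt-Atp8, like Usmg5, lay past it on the lower side. Of the 13 mitochondrially encoded subunits 12 were compared; their median log2 ratio was 0.058, with 8 above 0, from -0.31 for mt-Atp8 (954.88 and 772.07 CPM) to 0.20 for mt-Nd5 (462.96 and 531.43 CPM). Their sum was 34904 CPM in the standard and 36287 CPM in the FLASH library, so it lay on the other side of equality from the nuclear-encoded sum. Among 5 of 15 further complex IV assembly genes compared, Pet100, a small factor of complex IV assembly, had 89.03 and 74.35 CPM (-0.26, -0.33 to -0.19) and Cmc2 had 57.43 and 62.15 CPM (0.11).

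Copper handling outside the Cox genes gave 4 of 12 compared, with a median of -0.040; the copper and phosphate carrier Slc25a3 had 513.55 and 485.93 CPM (-0.080) and the cytosolic copper chaperone Atox1 had 128.57 and 123.33 CPM (-0.060). Genes of intermembrane-space import, the route that Cox17 itself takes, gave 9 of 15 compared and a median of 0.015; the most distant were Timm8a1 (0.10) and Timm10 (0.042). None of the compared genes of the copper route or the import route was past 1.2-fold.

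Of the other lists, TCA cycle genes (12 of 16 compared) had a median of -0.027, with Idh3b at -0.13 and Dld at 0.13. Mitochondrial ribosomal proteins (55 of 78) had a median of 0.012, led by Mrpl52 at -0.17 and Mrps21 at -0.16, and glycolysis genes (11 of 18) had -0.059, led by Aldoa at -0.13 and Eno1 at 0.12. Smaller yields came from further complex I assembly (2 of 9, Tmem70 at -0.094 and Lyrm2 at 0.076), assembly and control of complexes II, III and V (4 of 11, Ttc19 at 0.16 and Tmem70), electron carriers (2 of 12, Coq7 at 0.11 and Cycs at -0.089) and mitochondrial biogenesis (3 of 16, Slirp at -0.14 and Tfam at 0.050). Cytosolic ribosomal proteins (83 of 96) had a median of 0.015 and 3 genes past 1.2-fold lower, led by Rpl27 (-0.35) and Rpl36al (-0.31). Immediate early genes (8 of 12), which mark recent stress of cells and tissue handling, were below 0 in all 8, with Junb at -0.37 and Btg2 at -0.25, and nuclear retained RNAs (3 of 7) had a median of -0.12, with Miat at -0.19, Malat1 at -0.12 and Kcnq1ot1 at 0.00022. The part of the immediate early genes, Miat and Malat1 in the results above was not tested.

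Between tumour states the differences were larger and alike in both libraries. In differentiating neuron-like cells the oxidative phosphorylation genes summed to 25361 CPM (standard) and 24869 CPM (FLASH), against 28673 and 27860 CPM in non-cycling progenitor-like cells. The differentiating class was not uniform. Over both libraries together, cluster 3, led by Cntn2 and Tubb3, had 26684 CPM and cluster 6, led by Grin2b and Neurod1, had 22043 CPM. Cluster 24, of 3 and 7 cells, had 40039 CPM, and the progenitor-like clusters 0 and 1 had 27788 and 28779 CPM. The median log2 ratio of differentiating over progenitor-like was -0.19 and -0.15, with 64 and 62 of 83 compared genes below 0, against 0.074 and 0.071 for all 3356 genes. At clustering resolution 2.0 it was -0.13 and -0.097. No gene was 1.5-fold higher in both libraries, where 19.8% of all genes were, and 3 were 1.5-fold lower, where 13% (436 genes) were: Atp5g2, Atp5g1 and Ndufa12. Median depth was 5051 and 4352.5 UMIs in differentiating against 6586.5 and 5777 in progenitor-like cells. With each cell thinned to 2000 UMIs the median log2 ratio of these genes was -0.190 and -0.152, against -0.192 and -0.150 unthinned. The part of depth was not tested further.

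Atp5g1, Atp5g2 and Atp5g3 encode the same mature subunit c, the proton-carrying ring of ATP synthase, behind different targeting sequences, and they parted in the differentiating cells. Atp5g2 had 786.13 CPM (standard) and 795.18 CPM (FLASH) in progenitor-like cells and 466.45 and 474.93 CPM in differentiating cells, log2 ratios of -0.75 and -0.74. Atp5g1 had 592.78 and 597.94 CPM in progenitor-like and 371.30 and 383.95 CPM in differentiating cells (-0.67 and -0.64). Atp5g3 had 243.12 and 236.70 CPM in progenitor-like and 268.26 and 263.65 CPM in differentiating cells (0.14 and 0.16). The first 2 were lower and the last was not.

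Expressed as a share of the UMIs of the 3 genes, Atp5g3 took 14.99% (95% interval 14.48 to 15.51) of standard and 14.52% (14.05 to 15.01) of FLASH progenitor-like cells, and 24.3% (23.3 to 25.3) and 23.5% (22.5 to 24.5) of differentiating neuron-like cells. Its share was between 14.3% and 14.7% in S phase-like and G2/M-like cells, 16.8% and 16.9% in myeloid cells and 17.2% and 16.4% in oligodendrocyte-like cells. The Atp5g2 share ran from 57.0% in G2/M-like cells of both libraries, through 48.5% and 48.8% in progenitor-like cells, to 42.2% and 42.3% in differentiating cells. These shares compare cell classes; the 3 transcripts may differ in how well they are captured.

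Because these 3 genes encode one protein and differ between the same 2 states, the sequences before their start sites are shown. They come from RefSeq on GRCm38.p6, read 5′ to 3′ on the strand of the gene, with matches to 5 motif strings in capitals: NRF1 (GCGCATGCGC), the ETS core (CCGGAAG), YY1 (AAGATGGC), the CCAAT box (CCAAT) and the GC box (GGGCGG), on either strand. All 3 genes lie on the minus strand: the Atp5g1 stretch is chr11:96075671-96075881, the Atp5g2 stretch chr15:102671070-102671099 and the Atp5g3 stretch chr2:73911327-73911576. Within the 250 bases, exon sequence of other GENCODE transcripts begins 39 bases before the start for Atp5g1 and 80 for Atp5g2. The Atp5g1 stretch stops before it. Atp5g2 is shown as 30 bases around its match. These lie within its last 80 bases, so they are not upstream of annotated exons.
Atp5g1: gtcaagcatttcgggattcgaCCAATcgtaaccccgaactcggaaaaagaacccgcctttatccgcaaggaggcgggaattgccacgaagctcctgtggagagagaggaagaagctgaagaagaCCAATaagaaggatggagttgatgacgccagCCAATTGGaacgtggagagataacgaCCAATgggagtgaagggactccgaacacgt
Atp5g2: ggctccggccGCGCATGCGCagagccttcc
Atp5g3: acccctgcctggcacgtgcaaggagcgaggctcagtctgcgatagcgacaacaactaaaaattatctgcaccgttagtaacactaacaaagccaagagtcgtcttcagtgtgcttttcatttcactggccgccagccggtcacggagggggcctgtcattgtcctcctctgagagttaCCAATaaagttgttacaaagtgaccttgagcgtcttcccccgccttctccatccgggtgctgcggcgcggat
Atp5g1 had 5 CCAAT matches, 1 of them on the opposite strand, beginning 69 to 229 bases before the start; the pair at 92 and 95 overlaps and is printed as 1 run of capitals. Atp5g2 had the NRF1 string at 42 bases before the start, past the first annotated exon base of another transcript, and Atp5g3 had 1 CCAAT match at 72. None of the 3 had the ETS core, YY1 or GC box strings in the 250 bases, which says only that these letters are not in this window.

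Over all oxidative phosphorylation genes, 84 of 104 symbols matched a RefSeq promoter; Cox17 is among the 20 that did not. In the 250 bases before the start, the NRF1 string occurred in 5 of the 84 (5.95%), against 0.877% of all 27025 genes with a RefSeq promoter. A gene counted if any of its promoters held the string, and the 27025 genes were not matched for expression or GC content. The ETS core occurred in 17 (20.2%) against 7.83%, the CCAAT box in 37 (44.0%) against 37.5%, the GC box in 36 (42.9%) against 35.4%, and YY1 in 2 (2.38%) against 1.83%. Counting also the 50 bases after the start, YY1 occurred in 13 (15.5%) against 3.19%. NRF1, ETS factors and YY1 are known regulators of nuclear genes of the respiratory chain; a match is a description of letters and not a bound site.

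**Figure D4:**
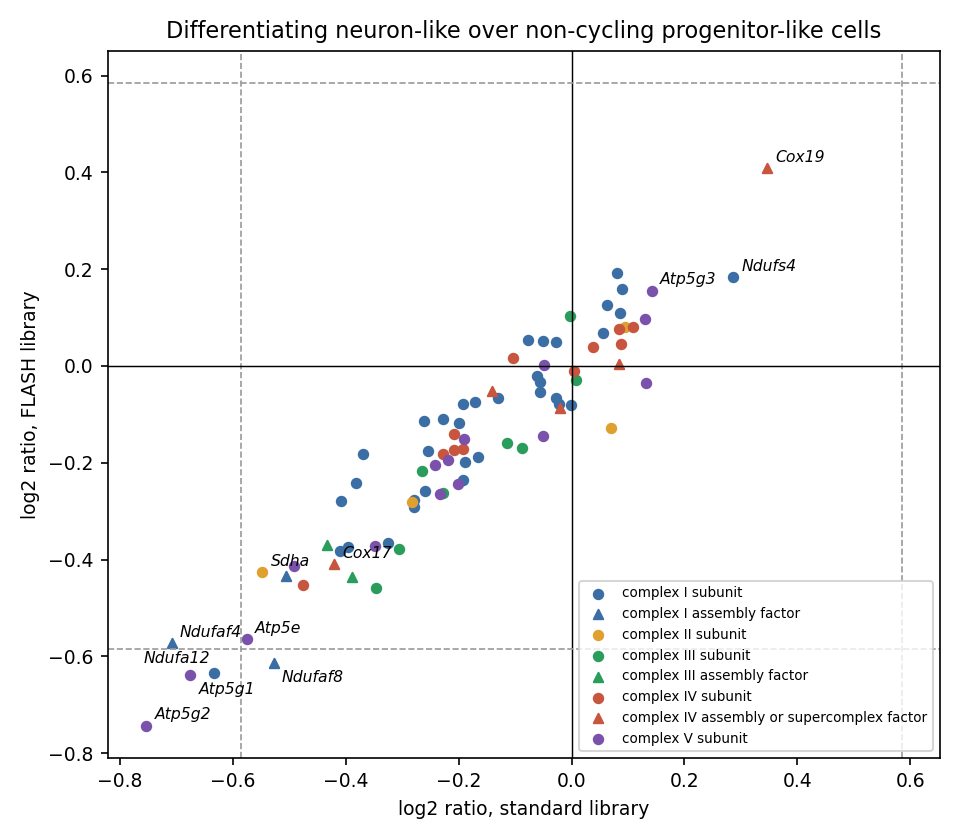
Log2 ratio of CPM, differentiating neuron-like over non-cycling progenitor-like cells, in the standard library (x axis) and the FLASH library (y axis); each point is a gene, circles for subunits and triangles for assembly or supercomplex factors, coloured by complex, and dashed lines mark 1.5-fold. Atp5g2, Atp5g1 and Ndufa12 lie past the lines in both libraries, and Cox19 is the highest at 0.35 and 0.41.

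Most other subunits of ATP synthase and complex I were also lower in differentiating cells, but by less than 1.5-fold. All 5 F1 genes of ATP synthase were below 0, with medians of -0.35 (standard) and -0.37 (FLASH); Atp5e was at -0.57 and -0.56 and Atp5d, the delta subunit, at -0.49 and -0.41. In complex I, Ndufa12 of the matrix arm had 315.88 and 319.13 CPM in progenitor-like and 203.72 and 205.44 CPM in differentiating cells (-0.63 and -0.64), followed in that arm by Ndufa2 at -0.41 and -0.38. Ndufs4, which sits beside Ndufa12 in the matrix arm, was on the other side at 0.29 and 0.18. The membrane arm was led by Ndufc2 (-0.33 and -0.37) and Ndufab1, the acyl carrier protein (-0.38 and -0.24).

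The 3 compared complex I assembly factors had lower ratios than the median complex I subunit. Ndufaf4 was at -0.71 (standard) and -0.57 (FLASH), Ndufaf8 at -0.53 and -0.61, and Ndufaf2 at -0.51 and -0.43, while the complex I subunits had medians of -0.17 and -0.081, with Ndufa12 as low as these factors. Complex II was led by Sdha (-0.55 and -0.43) and Sdhd (-0.28 and -0.28), complex III by Uqcrq (-0.35 and -0.46) and Uqcr10 (-0.31 and -0.38), and its assembly factors were Uqcc3 (-0.43 and -0.37) and Uqcc2 (-0.39 and -0.44). Complex IV was split, with 5 of 11 subunits above 0 in each library; Cox7b (-0.48 and -0.45) and Cox5a (-0.23 and -0.18) were farthest from 0. Among its assembly factors Cox17 was lower in differentiating cells (-0.42 and -0.41) and Cox19 higher (0.35 and 0.41).

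The mitochondrially encoded subunits had medians of -0.092 and -0.15 in the same contrast, with none past 1.5-fold. Mitochondrial ribosomal proteins had 6 of 56 past 1.5-fold lower, glycolysis genes had 6 of 11 lower and 2 higher, and cytosolic ribosomal proteins had 78 of 83 lower, where 13% of all genes were lower and 19.8% higher. Among import genes, Timm8a1 (-1.78 and -1.70) and Timm10 (-1.01 and -0.79) were the 2 of 8 past 1.5-fold lower. Of the 3 nuclear retained RNAs compared, Miat (1.71 and 1.72) and Malat1 (0.74 and 0.75) were higher in differentiating cells and Kcnq1ot1 was at 0.039 and 0.0034; the part of the first 2 in the contrast was not tested. Nuclear retained RNAs were not left out of the clustering that made these classes.

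Cycling cells differed little from non-cycling progenitor-like cells in these genes. In S phase-like cells no gene was 1.5-fold higher in both libraries (background 10.6%) and 2 of 82 were lower (background 2.61%). They were Cox7a2l, the supercomplex factor, with 309.25 (standard) and 333.95 CPM (FLASH) in progenitor-like and 190.91 and 206.22 CPM in S phase-like cells (-0.70 and -0.70), and the complex III assembly factor Uqcc3 at -0.72 and -0.64. In G2/M-like cells no gene was higher (background 10.0%) and 1 of 83 was lower (background 4.06%): Uqcc3, with 84.43 and 90.70 CPM in progenitor-like and 47.28 and 50.98 CPM in G2/M-like cells (-0.83 and -0.83). The highest in S phase-like cells was Ndufaf2 (0.60 and 0.54) and in G2/M-like cells Atp5g2 (0.33 and 0.29). All 12 compared mitochondrially encoded subunits were below 0 in G2/M-like cells, with medians of -0.34 and -0.40.

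Named classes outside the lineage carried less of this program, apart from oligodendrocyte-like cells. The summed level was 21602 (standard) and 20981 CPM (FLASH) in macrophage-like, 19392 and 21178 CPM in microglia-like, 18989 and 17995 CPM in endothelial-like, 15891 and 17230 CPM in erythroid-like and 28234 and 28338 CPM in oligodendrocyte-like cells. Of the unnamed clusters, the low-depth ones together had more than any of these classes, 34314 and 33783 CPM, and the one rich in nuclear RNA had 10818 and 11700 CPM, at median mitochondrial shares of 6.86% and 7.14%. Set against tumour-lineage cells, macrophage-like cells had 2 of 81 genes 1.5-fold higher (background 20.8%) and 19 lower (background 46.3%). The highest were Uqcrb (0.74 and 0.70), Ndufv3 (0.69 and 0.65) and Sdhd (0.35 and 0.44), and the lowest Ndufa12 (-1.22 and -1.14), Ndufa4 (-1.20 and -1.12) and Atp5j (-0.96 and -1.04). The median was -0.31 and -0.33 for these genes and -0.56 and -0.59 for all genes, so the share lowered was under that of genes in general.

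**Figure D5:**
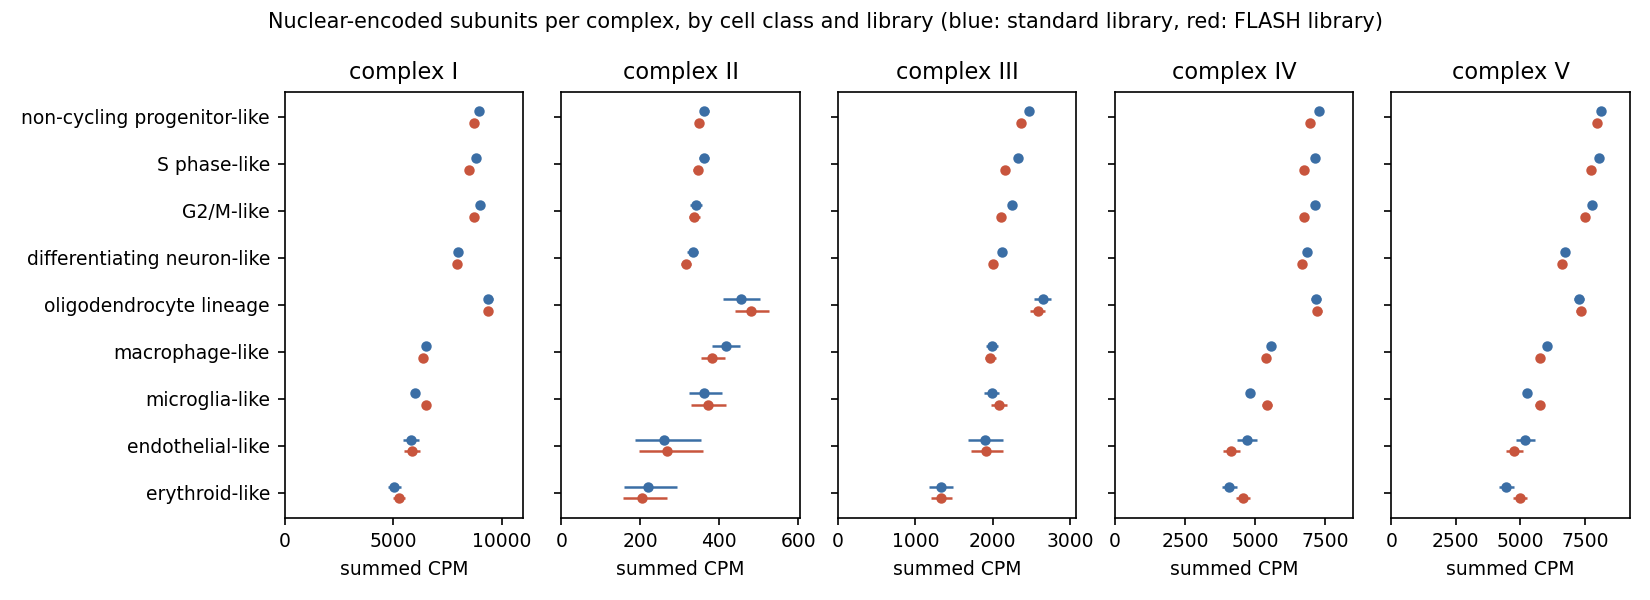
Summed CPM of the nuclear-encoded subunits of each complex (one panel per complex, axes from 0) by cell class, standard library in blue and FLASH library in red; horizontal lines are 95% Poisson intervals. Differentiating neuron-like cells lie below the progenitor-like cells in all 5 panels, and oligodendrocyte-like cells reach the highest complex II sums, 454 and 481 CPM.

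Microglia-like cells had 1 of 81 genes higher (Ndufv3, 0.64 and 0.85; background 18.7%) and 17 lower (background 45.7%). Besides Ndufv3 the highest were Uqcrb (0.37 and 0.76) and Ndufa1 (0.32 and 0.25), and the lowest were Ndufaf2 (-1.42 and -0.90, on 24 and 29 UMIs), Ndufa12 (-1.21 and -1.07) and Cox7a2 (-1.17 and -1.01). Their mitochondrially encoded subunits lay the other way, with medians of 0.39 and 0.24, and 12 and 11 of 12 above 0. Nuclear-encoded and mitochondrially encoded subunits of the same enzymes were thus not placed alike in these cells, at a median mitochondrial share of 4.12% and 4.15% against 3.43% and 3.54% in tumour-lineage cells.

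Oligodendrocyte-like cells had 3 of 84 genes higher (background 21.8%) and none lower (background 20.1%). The 3 were Uqcrb (0.83 and 0.91), Ndufaf2 (0.86 and 0.67) and Ndufv3 (0.74 and 0.65), and the lowest were Atp5j (-0.50 and -0.46), Cox7a2l (-0.37 and -0.49) and Cox7a2 (-0.40 and -0.43). Their complex II sum was 454 CPM (410 to 502) in the standard and 481 CPM (441 to 525) in the FLASH library, against 355 and 340 CPM in tumour-lineage cells. Uqcrb, a small complex III subunit, and Ndufv3, an accessory subunit of the NADH-oxidising part of complex I, thus recurred at the high end in macrophage-, microglia- and oligodendrocyte-like cells; these contrasts share the tumour-lineage cells as reference.

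Endothelial-like cells had 1 of 81 genes higher (Uqcrb, 0.77 and 0.76; background 22.0%) and 23 lower (background 24.4%), at few UMIs. Next to Uqcrb were Uqcc3 (0.46 and 0.61, on 13 and 18 UMIs) and Ndufa8 (0.30 and 0.71); among the lowest by mean, Ndufaf2 and Ndufc1 rested on 9 and 2, and on 19 and 29 UMIs. The median was -0.53 and -0.55 against -0.14 and -0.24 for all genes, while the mitochondrially encoded medians were 0.39 and 0.21. Erythroid-like cells were led by the haemoglobin genes Hbb-bs, Hba-a1, Hba-a2 and Hbb-bt, whose UMIs count in the CPM total. In these cells all 80 compared genes were below 0, 41 were 1.5-fold lower (background 39.5%) and none higher (background 0.475%). Maturing erythroid cells discard mitochondria. The part of haemoglobin RNA or of mitochondrial loss in these values was not tested. The median of the oxidative phosphorylation genes, -0.83 and -0.64, lay close to that of all genes, -0.77 and -0.63. The lowest were Cox17 (-0.98 and -1.44, on 10 and 7 UMIs), Uqcrc1 (-1.15 and -1.15) and Ndufa11 (-1.05 and -1.23), and those nearest 0 were Cox6a1 (-0.33 and -0.54), Ndufa3 (-0.40 and -0.51) and Cox19 (-0.12 and -0.84, on 11 and 9 UMIs).

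The tissue-restricted isoforms had few UMIs. Cox6a2 and Cox8b, the heart and skeletal muscle isoforms, had 107 (standard) and 58 (FLASH) and 21 and 8 UMIs over all barcodes that passed. A single standard barcode of 19920 UMIs, placed among progenitor-like cells, held 60 of the Cox6a2 UMIs and all 21 of Cox8b, together with 277 UMIs of Acta1, 450 of Mylpf and 373 of Tnnc2, genes of fast muscle fibres. A FLASH barcode of 14121 UMIs held 6 of Cox6a2 and all 8 of Cox8b, with 24, 15 and 46 UMIs of the same 3 genes. Without those barcodes Cox6a2 in tumour-lineage cells was 0.50 CPM in the standard and 0.52 CPM in the FLASH library, against 2.08 and 0.66 CPM with them.

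Cox6b2, the testis isoform, had 169 and 219 UMIs and was unevenly spread over the tumour states: non-cycling progenitor-like cells held 64 and 60 UMIs and differentiating neuron-like cells 2 and 2. Outside the lineage it was seen in 8.26% (10 of 121) and 11.4% (20 of 175) of oligodendrocyte-like cells and in 7.98% and 4.43% of macrophage-like cells, against 1.92% and 1.83% of tumour-lineage cells. After thinning to 2000 UMIs these shares were 0% (0 of 88) and 2.29% in oligodendrocyte-like, 2.45% and 1.01% in macrophage-like and 0.62% and 0.58% in tumour-lineage cells. Cox7a1 (42 and 51 UMIs), a further muscle isoform, Cox4i2 (14 and 16), the lung isoform, Ndufa4l2 (45 and 54), a gene induced by hypoxia, and Cox7b2 (13 and 30) were spread over many barcodes, with at most 3 UMIs in any barcode. Cox7a1 was seen in 4.29% and 4.43% of macrophage-like and 0.47% and 0.40% of tumour-lineage cells. After thinning these were 0.61% and 1.01%, and 0.15% and 0.25%. Cox8c had 2 UMIs in 2 standard barcodes and 0 in FLASH. For Ndufa4l2 the barcode with the most UMIs was fibroblast-like in each library. No fold is given for these genes at such counts.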

How the data were processed

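The deposited matrices hold raw UMI counts per gene and barcode, produced by the authors (Cell Ranger 6.1.2, per the file headers; mm10, per the submitters' processing notes), and the sources used here do not name the annotation release. The genes, gene lists and rules were chosen with earlier results of these data known. Doublets were scored with Scrublet in scanpy 1.11.5; its automatic cutoff marked 1 of 8461 and 0 of 10366 barcodes, so the highest scores were removed at 0.8% per 1000 barcodes (573 and 860). Clustering used log-transformed counts at 10000 per cell and 2000 variable genes. The oxidative phosphorylation, mitochondrial and ribosomal protein genes, sex-linked genes, Cre and SmoM2EYFP were left out beforehand. So were the pathway-list genes, except the nuclear retained RNAs, which stayed eligible. With 30 principal components and 15 neighbours, Leiden clustering at resolution 1.0 (leidenalg 0.10.2, igraph 0.11.9, scikit-learn 1.9.0) gave 25 clusters. The cutoffs for naming clusters were set after seeing the data.

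UMIs were summed per class and library, and ratios were taken after adding 0.5 count. Intervals at 95% are exact conditional binomial for ratios, exact Poisson for CPM and exact Clopper-Pearson for shares (scipy 1.17.1). In contrasts between classes the level filter weighted the classes equally. The ratio step was run on simulated counts for the tumour-lineage comparison of 3334 genes. Of 200 genes changed 0.5-, 0.667-, 1.5- or 2.0-fold, 100% passed 1.2-fold, as did 0% of 3134 unchanged genes. The simulated counts carried Poisson error only, without variation between libraries, and no changed gene had a fold between 0.667 and 1.5. They check the calculation and cannot show how often unchanged genes pass 1.2-fold between 2 real libraries. Named genes are Cox17, the 6 highest and 6 lowest between libraries, the 2 most changed per group in differentiating cells, the 3 highest and 3 lowest per other class, all tissue isoforms, and 2 per pathway list; others named in the text were chosen after their values were seen. Of the genes this rule selected, 1 is left out of the text. A planned list of proteins with 2 CX9C motifs was not used here. Alternatives covered the doublet, gene and mitochondrial filters, clustering resolution, thinning, cluster mix, centring, count added, level filter, fold, top cells and the mitochondrial part of the total.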

Additional observations from a re-analysis of the deposited data

How the results depend on the processing

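Every value rests on 1 library per group, so no alternative replaces a replicate. No paired analysis was possible because each group has 1 library. In tumour-lineage cells the log2 ratio of Cox17 stayed between -0.44 and -0.41 over 11 alternatives, that of Ndufa1 between -0.30 and -0.27, and 61 of the 83 compared genes kept the sign of their ratio in all 11. The median over all genes of the set, -0.038, was -0.022 with doublets kept, -0.044 at no more than 5% mitochondrial UMIs, -0.031 at resolution 2.0, -0.025 after thinning and -0.051 after centring on the median of all genes. With 2 alternatives added after seeing the data it was -0.023 with the nuclear RNA-rich cluster counted as tumour-lineage and -0.033 without the unnamed lineage clusters. Some medians near 0 changed sign: complex I matrix arm 0.0045 after thinning, complex I membrane arm 0.0014 with doublets kept and 0.0014 with the nuclear RNA-rich cluster, and complex V 0.00035 with doublets kept. In the contrasts with progenitor-like cells, the differentiating medians (-0.19 standard, -0.15 FLASH) were -0.27 and -0.20 with doublets kept and -0.13 and -0.097 at resolution 2.0. The S phase-like medians (-0.056 and -0.070) were 0.030 and -0.021 with doublets kept and 0.085 and 0.027 at resolution 2.0, and the G2/M-like medians (-0.029 and -0.092) were 0.059 and -0.0021, and 0.061 and -0.0017. The cause was not tested.

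The counts past a fold depend on the fold and on the level filter. No share of all genes is given at these other settings. The counts below therefore show only how the number of these genes changes, and cannot be set against genes in general. With 100 UMIs but no CPM filter, the count lower in FLASH (2) became 4, lower in differentiating cells (3) became 5, lower in G2/M-like cells (1) became 2, and higher in macrophage- (2), microglia- (1), oligodendrocyte- (3) and endothelial-like cells (1) became 4, 2, 6 and 3. At 1.5-fold between libraries 0 genes were lower. At 1.2-fold between states, differentiating cells had 1 higher and 23 lower, S phase-like cells 3 and 7, and G2/M-like cells 2 and 11; at resolution 2.0 S phase-like cells had 1 lower in place of 2. At 2-fold, macrophage-like cells had 0 higher and 2 lower, microglia-like cells 0 and 3, endothelial-like cells 0 and 0, oligodendrocyte-like cells 0 higher, and erythroid-like cells 3 lower. With at least 1000 genes per barcode microglia-like cells had 0 higher and erythroid-like cells 13 lower in place of 41. Macrophage-like cells had 1 higher at 5% mitochondrial UMIs and 1 after thinning, which left 0 higher in microglia- and endothelial-like cells.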
